A study of Mus musculus with 6 samples.

Results

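Wnt proteins are secreted, lipid-modified ligands that bind Frizzled receptors. In the canonical branch a Wnt signal stops the destruction of beta-catenin, which then acts with TCF and LEF factors in the nucleus, and some of the genes switched on (Axin2, Rnf43) encode inhibitors that feed back on the pathway. In skin this pathway is known for starting and renewing hair follicles, while ligands such as Wnt5a are known mainly for branches that do not use beta-catenin. The 10 genes described here are 6 ligands of skin (Wnt3, Wnt4, Wnt5a, Wnt5b, Wnt7b and Wnt10a), the response genes Axin2, Rnf43 and Ccn4, and Sostdc1, a secreted inhibitor of Wnt and BMP signals. They were taken by gene symbol from the platform annotation, and each is represented by the probe set with the highest mean over all arrays, 10 genes of 18193 measured.

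The values come from Affymetrix 3' arrays hybridised with RNA of cells from mouse skin tumours. The wild-type (WT) group held 3 mice, and the EKO group held 3 mice deficient in E-FABP, the epidermal fatty acid binding protein encoded by Fabp5. Both groups carried tumours induced over 5 months by the carcinogen DMBA and the tumour promoter TPA, so no untreated skin is part of the comparison. The sources used here name no strain, sex, age or construction of the deficient allele. The titles call the replicates biological, with 1 array for each mouse. Where 3 values of a group follow each other below, they are those of replicates 1, 2 and 3 in this order.

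All 6 arrays matched their genotype labels, with Fabp5 log2 values of 14.80 to 14.94 in WT and 7.98 to 8.30 in EKO tumours. The labels call the cells keratinocytes, and 11 of 12 keratinocyte markers were measured, with a mean log2 value of 12.29 to 12.45 in WT and 12.26 to 12.52 in EKO arrays. The arrays also read markers of other cells. Mean log2 values of 13 fibroblast markers were 9.66 to 10.34 over the 6 arrays, and those of 12 measured leukocyte markers 8.17 to 8.39. Over all genes the mean was 6.75 to 6.79. Of the leukocyte markers 1 (Ncr1) lay below the lower quartile of every array, and of the fibroblast markers none did. Of all 18193 genes 2308 lay below it in every array, so these counts alone do not show that a cell type was present. Hair follicle markers, 18 of 18 measured, differed widely between arrays, with mean log2 values of 8.87, 9.84 and 11.96 in the WT arrays against 11.32, 11.44 and 10.55 in the EKO arrays. In such mixed samples a lower proportion of a cell type and less RNA in each of its cells cannot be told apart.

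Setting EKO beside WT tumours asks whether transcripts of the Wnt pathway differ when E-FABP is lacking. None of the 10 genes passed the threshold, an adjusted p under 0.05 over all genes by limma, a linear model with variances moderated across genes. Fabp5 was the 1 gene that did, 0.0055% of those tested. The EKO mean was higher for 7 of the 10 genes and lower for 3, where 50% of all genes lay on either side. The largest differences were those of Ccn4, at 0.78, and Wnt5a, at 0.70, both with the EKO mean higher, all differences being EKO minus WT on the log2 scale. At an unadjusted p under 0.05, 4 genes had higher EKO means (Wnt4, Wnt5a, Rnf43 and Ccn4) and 0 had lower ones, beside 3.44% of all genes with higher and 3.7% with lower EKO means. For 2 of the 10, Wnt4 and Wnt5a, every EKO value lay above every WT value, as it did for 5.78% of all genes, and 0 of the 10 were separated in the opposite direction, as 6.19% of all genes were. The median difference of the 10 genes was 0.15, where that of all genes was 0.00. It was 0.006 over the 6 of them in the upper 50% of means. The 10 genes were chosen with earlier results of these data known, so these counts and medians describe them and test nothing.

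**Figure D1:**
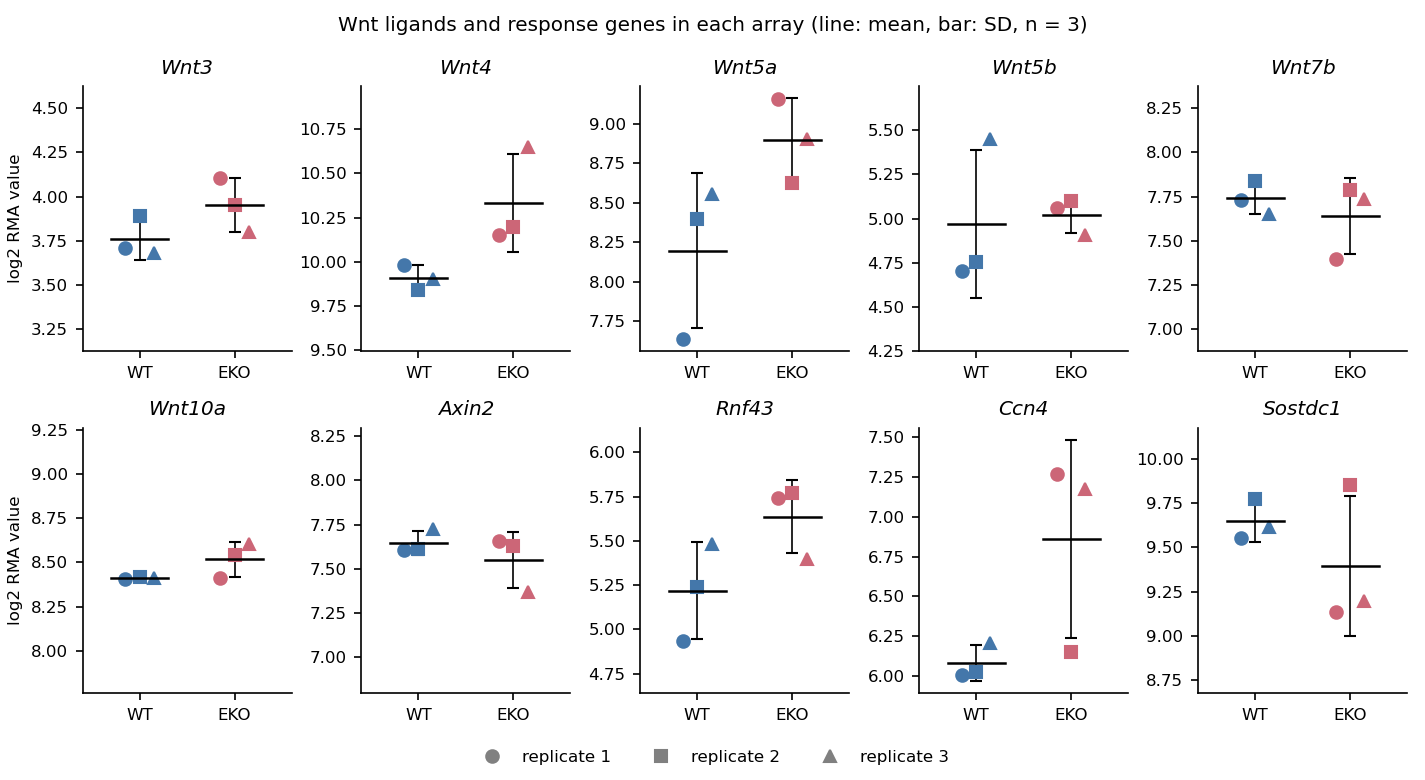
Log2 RMA values of the 10 genes in each array, WT in blue and EKO in red, with the symbol giving the replicate number, the line the mean and the bar the SD of 3 arrays. Values of Wnt4 and Wnt5a do not overlap between the groups, and Ccn4 in EKO replicate 2, at 6.15, lies within the WT range of 6.01 to 6.21.

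Promoter sequences bear on these genes because beta-catenin acts through TCF and LEF factors, which bind CTTTG followed by a pair of bases that are each A or T. RefSeq promoter windows of the GRCm38.p6 build, each 300 bases long from 250 before to 50 after a transcript start, were matched for 5 of the 10 genes, with 8 windows in all. Wnt5a, Wnt7b, Wnt10a, Ccn4 and Sostdc1 were not matched. Of the windows, 4 are shown here from 5′ to 3′ in the direction of the gene, with any match to this motif of 7 letters on either strand in capitals: that of Wnt3 because it holds a match, that of Wnt4 because its groups did not overlap, and those of Axin2 and Rnf43 because these are the feedback genes of the pathway.
Wnt3, chr11:103773925-103774224, plus strand: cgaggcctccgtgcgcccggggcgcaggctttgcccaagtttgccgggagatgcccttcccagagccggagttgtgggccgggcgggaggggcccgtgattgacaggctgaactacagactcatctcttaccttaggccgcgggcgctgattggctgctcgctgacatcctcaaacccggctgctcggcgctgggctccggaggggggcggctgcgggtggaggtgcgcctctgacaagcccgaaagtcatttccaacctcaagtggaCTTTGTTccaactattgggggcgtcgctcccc
Wnt4, chr4:137277385-137277684, plus strand: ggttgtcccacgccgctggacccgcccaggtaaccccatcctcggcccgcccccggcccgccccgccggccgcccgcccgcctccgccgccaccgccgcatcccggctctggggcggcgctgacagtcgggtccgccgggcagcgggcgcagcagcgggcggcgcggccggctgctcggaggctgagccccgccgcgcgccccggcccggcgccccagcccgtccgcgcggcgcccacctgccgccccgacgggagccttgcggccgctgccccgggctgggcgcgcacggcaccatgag
Axin2, chr11:108920099-108920398, plus strand: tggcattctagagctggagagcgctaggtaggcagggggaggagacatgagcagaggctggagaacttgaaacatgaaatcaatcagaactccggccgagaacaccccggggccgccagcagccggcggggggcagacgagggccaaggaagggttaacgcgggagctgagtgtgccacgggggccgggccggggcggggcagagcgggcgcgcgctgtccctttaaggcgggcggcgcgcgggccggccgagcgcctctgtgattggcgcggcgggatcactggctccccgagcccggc
Rnf43, chr11:87662837-87663136, plus strand: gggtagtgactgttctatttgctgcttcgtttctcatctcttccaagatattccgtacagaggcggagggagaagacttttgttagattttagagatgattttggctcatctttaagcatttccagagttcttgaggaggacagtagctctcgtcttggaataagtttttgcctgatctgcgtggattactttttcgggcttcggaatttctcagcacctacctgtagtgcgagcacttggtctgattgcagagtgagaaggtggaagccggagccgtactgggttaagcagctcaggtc
The motif was found in 2 of the 8 windows, in Wnt3 as CTTTGTT from base 19 after the start, and in 1 of the 3 windows of Wnt5b as CTTTGAT from base -71. Of 32851 RefSeq windows of the same length, 16.9% held at least 1 match. The windows of Wnt4, Axin2 and Rnf43 printed above held none, which says only that these letters are not within those 300 bases.

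Among the ligands, Wnt4 (probe set 1450782_at), which is made by basal keratinocytes, had EKO values above all WT values with both of its probe sets. It read 9.98, 9.84 and 9.90 in the WT arrays against 10.15, 10.20 and 10.65 in the EKO arrays. The WT arrays lay within 0.15 of each other, and EKO replicate 3 stood above the other EKO arrays. The means were 9.91 ± 0.073 in WT and 10.33 ± 0.276 in EKO tumours (SD, n = 3 each), a 1.34-fold difference by the means (log2 0.42, SE 0.144, limma adjusted p = 0.63). A second probe set of Wnt4 gave 8.96, 8.85 and 8.81 in WT and 9.19, 9.28 and 9.59 in EKO tumours, again without overlap (difference 0.48). With 1 array left out the difference of the brighter probe set ran from 0.27 without EKO replicate 3 to 0.52 without EKO replicate 1.

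Wnt5a (probe set 1448818_at), a ligand of the branches that do not use beta-catenin and a known product of stromal as well as epithelial cells, varied more within the WT group than within the EKO group. Its log2 values were 7.64, 8.40 and 8.55 in the WT arrays against 9.16, 8.62 and 8.90 in the EKO arrays. WT replicate 1 stood 0.76 below the next array, while the highest WT and the lowest EKO value, 8.55 and 8.62, nearly met. The means were 8.20 ± 0.491 in WT and 8.89 ± 0.266 in EKO tumours (SD, n = 3 each), with a difference of 0.70 (SE 0.253, limma adjusted p = 0.655). Without WT replicate 1 the difference was 0.42. Wnt5a has 4 probe sets, and all had higher EKO means, by 0.70, 0.63, 0.69 and 0.25. In the second of them WT replicate 3, at 8.75, lay above EKO replicates 2 and 3, at 8.55 and 8.70, and in the third, at 6.63, it lay above EKO replicate 2, at 6.61. The separation of the groups therefore held for 2 of the 4 probe sets. In the fourth, which lay below the median of each of the 6 arrays, the highest WT and the lowest EKO value were 4.64 and 4.66.

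Wnt5b (probe set 1439373_x_at), the closest relative of Wnt5a, ranked the arrays differently. It read 4.70, 4.75 and 5.45 in the WT arrays against 5.06, 5.10 and 4.91 in the EKO arrays. WT replicate 3 was the highest of all arrays and WT replicate 1 the lowest, so that all EKO values lay inside the WT range. The difference was 0.05, with a 95% interval from -0.42 to 0.53, and it turned to -0.08 without WT replicate 1.

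Wnt7b (probe set 1420892_at) and Wnt10a (probe set 1460657_at), ligands of epidermis and hair follicle, had means close to each other in the groups. Wnt10a read 8.40, 8.41 and 8.41 in the WT arrays against 8.41, 8.54 and 8.60 in the EKO arrays. The WT arrays were almost identical, with an SD of 0.0053, and EKO replicates 2 and 3 lay above them. Its difference was 0.11 (95% interval -0.09 to 0.31). Wnt7b read 7.73, 7.84 and 7.65 in the WT arrays against 7.40, 7.79 and 7.74 in the EKO arrays. EKO replicate 1 alone lay below the WT values. The difference was -0.10 (95% interval -0.39 to 0.19) and became 0.02 without EKO replicate 1, while the dimmer probe set of the gene gave 0.08.

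Wnt3 (probe set 1450763_x_at), a ligand of the canonical branch, was close to the floor of the arrays. Its log2 values were 3.71, 3.89 and 3.68 in the WT arrays against 4.11, 3.95 and 3.80 in the EKO arrays. In 4 of the 6 arrays these lay below the lower quartile of all probe sets, 3.90 to 3.97, where RMA narrows differences. The difference of 0.19 (95% interval -0.07 to 0.45) is therefore not exact, and EKO replicate 3 overlapped the WT values.

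**Figure D2:**
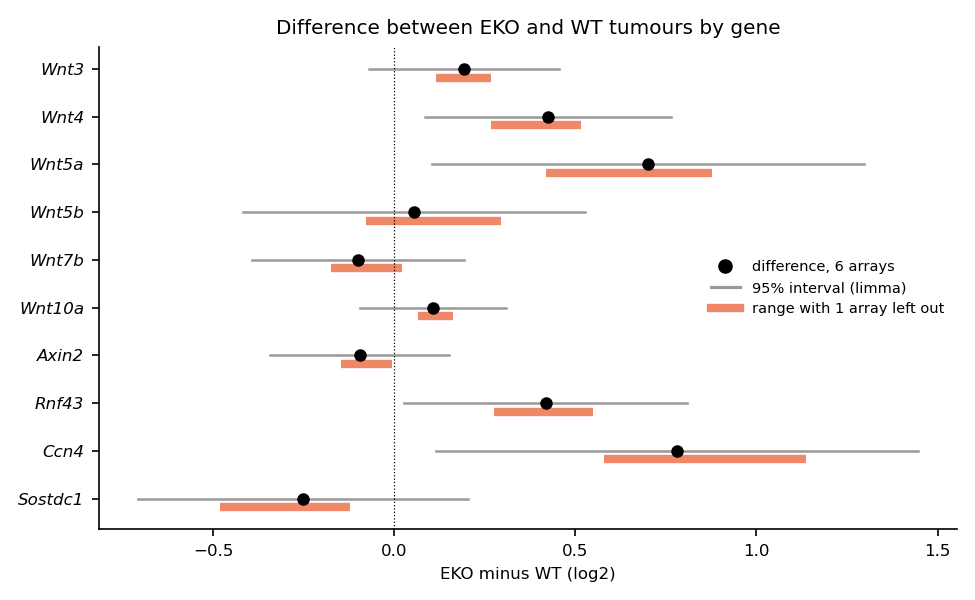
EKO minus WT difference of each of the 10 genes on the log2 scale (point), its 95% interval from limma (grey line) and the range of the difference when 1 of the 6 arrays is left out (orange bar). The bars of Wnt5b and Wnt7b cross 0, and the bar of Ccn4 is the widest upward, reaching 1.14.

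Of the feedback genes, Axin2 had a slightly lower and Rnf43 a higher EKO mean, and neither passed the threshold. Axin2 (probe set 1436845_at), a scaffold of the beta-catenin destruction complex and a widely used readout of canonical signalling, read 7.61, 7.61 and 7.72 in the WT arrays against 7.65, 7.63 and 7.37 in the EKO arrays. EKO replicates 1 and 2 lay inside the WT range, and EKO replicate 3 was below it. The means were 7.65 ± 0.0661 and 7.55 ± 0.158 (SD, n = 3 each), and the difference was -0.10 (SE 0.105, limma adjusted p = 0.871), with a 95% interval from -0.34 to 0.15. Without EKO replicate 3 it was -0.01. A second Axin2 probe set, dimmer than the lower quartile of each of the 6 arrays, gave a difference of -0.01.

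Rnf43 (probe set 1427008_at), a membrane ubiquitin ligase that removes Frizzled receptors from the cell surface, had a higher EKO mean. It read 4.93, 5.24 and 5.48 in the WT arrays against 5.74, 5.77 and 5.40 in the EKO arrays. EKO replicates 1 and 2 lay above every WT array, and EKO replicate 3 lay below WT replicate 3. The means were 5.22 ± 0.273 and 5.64 ± 0.206 (SD, n = 3 each), a difference of 0.42 (SE 0.166, limma adjusted p = 0.679). These values lie close to the array medians of 5.41 to 5.43, and 3 of the 6 arrays were below their median. Rnf43 has 1 probe set, so no second measurement exists.

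Ccn4 (probe set 1448593_at), also called Wisp1, a secreted matricellular protein first described as a Wnt-1-induced gene, had the largest difference of the 10 genes. Its log2 values were 6.01, 6.03 and 6.21 in the WT arrays against 7.26, 6.15 and 7.17 in the EKO arrays. EKO replicates 1 and 3 stood far above all WT arrays, and EKO replicate 2 lay within the WT range. The EKO SD was accordingly 0.619 against 0.113 in WT tumours, and the difference of 0.78 (1.72-fold by the means, SE 0.282) did not pass (limma adjusted p = 0.655). Without EKO replicate 2 it was 1.14 (SE 0.109) and passed, with limma adjusted p = 0.0253, the range over all alternatives being 0.0253 to 0.998. In that fit, 0.209% of all genes were called with the EKO mean higher and 0.022% with it lower. The second Ccn4 probe set kept the order within the EKO group, with 5.30, 5.23 and 5.80 in WT against 7.33, 5.29 and 7.13 in EKO arrays, and a difference of 1.14.

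Sostdc1 (probe set 1449340_at), also called ectodin or Wise, had the reverse order of Ccn4 among the EKO tumours. It read 9.55, 9.77 and 9.61 in the WT arrays against 9.14, 9.85 and 9.20 in the EKO arrays. EKO replicates 1 and 3, high for Ccn4, were below every WT array, while EKO replicate 2 was the highest of all 6. The difference was -0.25 (SE 0.194, limma adjusted p = 0.819) and -0.48 without EKO replicate 2, and with that array left out it still did not pass (limma adjusted p = 0.25, the smallest over all alternatives). The second probe set kept the order within the EKO group (7.76, 8.47 and 7.89) and gave a difference of -0.31. Across the 6 arrays Pearson's r between Ccn4 and Sostdc1 was -0.92, and -0.95 for the deviations from the group means. Both are given as a description, since this pair had the strongest r of all pairs among the 10 genes and the arrays share their genotype groups. The r values rest mainly on the EKO arrays, which spanned 1.12 for Ccn4 and 0.71 for Sostdc1, against 0.20 and 0.22 in WT. Among the WT arrays replicate 1 was the lowest for both genes. Sox2, the transcription factor named in the study's title, also set EKO replicate 2 apart, with 7.87, 4.84 and 8.36 in the EKO arrays and 2.91 to 3.71 in WT tumours.

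Wnt5a and Rnf43 were lowest in the array with the lowest level of hair follicle markers, WT replicate 1. So were Wnt5b, Wnt10a and Ccn4, although the WT arrays lay within 0.01 of each other for Wnt10a and within 0.20 for Ccn4. All 18 hair follicle markers had higher means in EKO tumours (median difference 0.87, 0 past the threshold). WT replicate 3, with the highest marker level, read 8.55 for Wnt5a and 5.48 for Rnf43. With the mean marker level of each array as a covariate, an analysis chosen after seeing the data, the difference of Wnt5a was 0.495 (SE 0.221, limma adjusted p = 0.727) and that of Rnf43 was 0.251 (SE 0.113, limma adjusted p = 0.731). For Ccn4 it was 0.776 and for Wnt4 0.48, and Wnt5b turned to -0.169. Whether hair follicle content has a part in the values of these genes was not tested. Markers of fibroblasts, a known source of Wnt5a, had mean log2 values of 9.67 to 10.34 in WT and 9.66 to 10.25 in EKO arrays, and 9 of 13 had lower EKO means. Their part in the values of Wnt5a and Ccn4 was not tested. Dermal papilla markers, 6 of 7 measured, had mean log2 values of 5.67 to 5.99 in WT and 6.40, 5.68 and 5.99 in the EKO arrays, and their part was not tested either. WT replicate 1 was also set apart by markers of other cells. Skeletal muscle markers had a mean log2 value of 9.29 in it and 6.21 to 7.59 in the other arrays, with lower EKO means for 10 of 10. Melanocyte markers had 6.70 in it and 7.70 to 9.48 elsewhere, with higher EKO means for 5 of 6. Adipocyte markers were highest in it, at 7.71, but did not set it apart, with 7.40 in WT replicate 3 and 5.95 to 7.19 in the other arrays. Their EKO means were lower for all 4 measured. The part of these markers in the values of Wnt5a and Rnf43 was not tested.

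**Figure D3:**
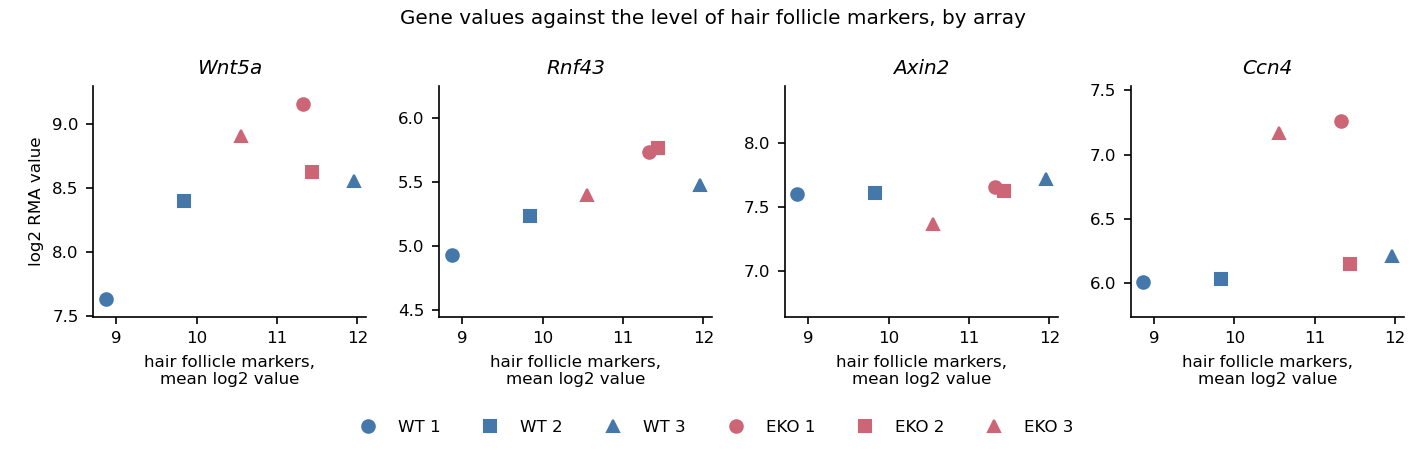
Log2 RMA values of Wnt5a, Rnf43, Axin2 and Ccn4 (vertical axes) against the mean log2 value of 18 hair follicle markers (horizontal axes) in each array, WT in blue and EKO in red. WT replicate 1, with the lowest marker level of 8.87, has the lowest Wnt5a, Rnf43 and Ccn4 values. Ccn4 reads 7.26 and 7.17 in EKO replicates 1 and 3. It reads 6.15 and 6.21 in EKO replicate 2 and WT replicate 3, the arrays with marker levels of 11.44 and 11.96.

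The rest of the pathway was followed with lists covering 103 further Wnt pathway genes, of which 101 were measured. By limma, 0 passed over all genes, 6 had higher and 2 lower EKO means at an unadjusted p under 0.05 (3.44% and 3.7% of all genes), and the median difference was 0.025. The groups did not overlap for 8 of them with EKO higher and 4 with EKO lower, beside 5.78% and 6.19% of all genes. Of the other 13 ligands, 6 had higher and 7 lower means, with a median of -0.02. The exception in size was Wnt9a, a ligand that like Ccn4 was lower in EKO replicate 2 than in the other EKO arrays: it read 5.33, 5.33 and 5.56 in the WT arrays against 6.84, 5.75 and 6.97 in the EKO arrays. Its difference of 1.11 (SE 0.304, limma adjusted p = 0.621) became 1.49 and passed without EKO replicate 2 (limma adjusted p = 0.0122, up to 0.998 over the alternatives), and was 0.675 with a mean over its probe sets. Wnt2b differed by 0.26 near the floor of the arrays, and Wnt8a by -0.20. The genes of ligand handling, Wls, which carries Wnts to the cell surface, Porcn, which acylates them, and Notum, which removes the acyl group, differed by -0.09, -0.06 and -0.01.

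Receptors showed no common direction. Of 16 Frizzled receptors and coreceptors, 7 had higher and 9 lower EKO means (median -0.05), 0 reached an unadjusted p under 0.05, and Ptk7 (0.18), Fzd10 (-0.17) and Ryk (-0.15) had the smallest p. With a mean over probe sets Fzd10 was at -0.088 and Ryk at -0.027. The 8 R-spondin genes and their receptors, which amplify Wnt signals by taking Rnf43 and Znrf3 off the membrane, had a median of -0.01, with Rspo2 at 0.19, Rspo1 at -0.36 and Rspo4 at -0.15. That of Rspo1 ran from -0.65 without WT replicate 2 to -0.14 without WT replicate 3, that of Rspo4 was -0.075 without EKO replicate 1, and that of Rspo2 was 0.072 with a mean over probe sets. Znrf3, the close relative of Rnf43, differed by 0.15 and was chosen after its values were seen.

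Among 13 measured extracellular inhibitors (median 0.03), Dkk2, a Dickkopf protein that binds the coreceptor Lrp6, stood out on the lower side. It read 6.84, 6.51 and 6.16 in the WT arrays against 5.65, 5.83 and 5.98 in the EKO arrays. Every EKO array lay below every WT array, although WT replicate 3 and EKO replicate 3 were only 0.18 apart. The difference of -0.68 (SE 0.179, limma adjusted p = 0.621) did not pass. With 1 array left out it ran from -0.856 to -0.516, and with the hair follicle covariate it was -0.494. Whether hair follicle content has a part in the values of Dkk2 was not tested. Sfrp2, a soluble Frizzled-like antagonist of stroma, differed by 0.67 with an SD of 0.92 among EKO tumours, and Frzb by 0.15. The difference of Sfrp2 rested on single arrays, with 0.18 without EKO replicate 1 and 1.09 without EKO replicate 3, and that of Frzb was 0.075 without EKO replicate 3.

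Genes of the beta-catenin relay differed by little. Of 14 destruction and relay genes, 12 had higher EKO means, with a median of 0.075 and 0 past the threshold, and the largest difference was 0.31 for Dvl1, a Dishevelled protein that passes the signal on from Frizzled. The next by p were Tnks2 (0.21) and Apc2 (-0.20). The 11 measured TCF and LEF factors and cofactors had a median of 0.05, with Tle3 at 0.24, Tcf7l1 at 0.22 and Bcl9l at 0.09. With a mean over probe sets Tcf7l1 was at 0.018, Bcl9l at -0.023, Tnks2 at 0.084 and Apc2 at -0.077, and without WT replicate 2 Tcf7l1 was at 0.078. The 12 genes of planar polarity and other non-canonical relay had a median of 0.00. Within that list Daam1, a formin acting behind Dishevelled (0.28), and Celsr1, a polarity cadherin (0.36), had EKO values above all WT values, while Nfatc1 (-0.49) had them below.

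Other response genes of beta-catenin, 16 of 17 measured, had a median difference of 0.11, with 10 higher, 6 lower and 0 past the threshold. Ccnd1, which encodes cyclin D1 and also answers to Ras and growth factor signals, read 9.59, 9.59 and 10.12 in the WT arrays against 11.20, 10.17 and 10.86 in the EKO arrays. EKO replicate 2 came within 0.05 of WT replicate 3, and the difference was 0.97 (SE 0.274, limma adjusted p = 0.621). Ascl2, a transcription factor of stem cells, had EKO values of 6.32 to 6.64 above WT values of 5.99 to 6.24 (difference 0.39). Ccn5, a relative of Ccn4 in the same family, had a lower EKO mean (-0.45). Further genes of this list, chosen after their values were seen, differed by -0.09 (Sp5), -0.05 (Nkd1), 0.33 (Nkd2) and 0.84 (Bambi). The groups overlapped for each of them, and Sp5 was dim, with log2 values of 4.36 to 4.61. Lef1, likewise chosen afterwards, read 6.53, 7.70 and 8.61 in the WT arrays against 8.78, 8.03 and 7.35 in the EKO arrays. The groups overlapped for this TCF family member of the hair matrix, and WT replicate 1 was the lowest, as for the hair follicle markers.

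**Figure D4:**
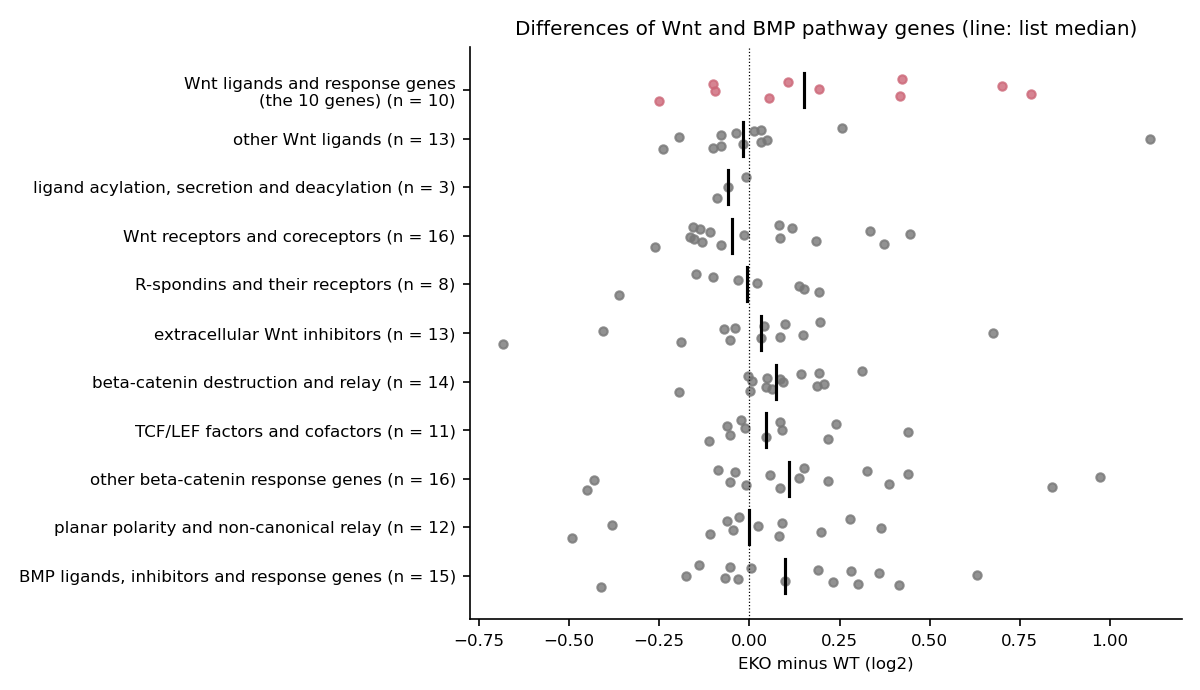
EKO minus WT differences on the log2 scale of the 10 genes (red) and of the genes in each pathway list (grey), 1 point per gene, with the median of each list as a black line and n the number of measured genes. List medians lie between -0.06 and 0.11, that of the 10 genes is 0.15, and Wnt9a at 1.11 is the point farthest to the right.

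BMP pathway genes were included because Sostdc1 also binds BMP ligands. Of 16 genes 15 were measured, with 9 higher, 6 lower, a median of 0.10 and 0 past the threshold. Bmpr1b, a BMP receptor, read 5.33, 5.06 and 5.11 in the WT arrays against 5.99, 5.66 and 5.74 in the EKO arrays. The groups did not overlap and EKO replicate 2 lay close to EKO replicate 3, but the difference of 0.63 (SE 0.123) did not pass (limma adjusted p = 0.546), and with a mean over its probe sets it was 0.21. Bmp6, a ligand of the pathway, differed by 0.42 and the receptor Bmpr2 by 0.30 (0.161 with a mean over its probe sets).

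Genes whose values ran most nearly in parallel with Axin2 and Wnt5a were sought among 8921 named genes of the upper 50% of means, by Pearson's r over the 6 arrays. For Axin2 these were Rfwd3 (0.99), Tlk1 (0.989), Fzd7 (0.982), Ccpg1 (0.98) and Vipas39 (0.98), and 85 genes had an r above 0.9. Fzd7, a Frizzled receptor, read 9.11, 9.02 and 9.40 in the WT arrays against 9.10, 9.13 and 8.52 in the EKO arrays, and EKO replicate 3 was lowest for it as for Axin2. For Wnt5a they were Mapk7 (0.985), Prpf6 (0.985), Mpg (0.974), Nkx2-9 (0.969) and Plekhg1 (0.966), and 65 genes had an r above 0.9. With a mean over the probe sets of each gene, r for the named genes with Axin2 ran from 0.414 (Fzd7) to 0.816 (Rfwd3). With Wnt5a it was 0.745 for Prpf6 and 0.74 for Mpg, but 0.964 for Mapk7, 0.961 for Nkx2-9 and 0.956 for Plekhg1. These values describe 6 arrays and carry no test. How many of the 8921 genes would exceed an r of 0.9 by chance over 6 arrays was not determined. Neither the counts nor the named genes therefore show shared regulation.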

How the data were processed

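Each array measured RNA from the tumour cells of 1 mouse. The deposited unit is log2, and the submitters' processing notes name RMA and Partek 6.6. RMA corrects background, normalizes quantiles between arrays and summarises probes, which narrows differences near the floor. The values were used as deposited; their depth is the number of arrays, 3 per group. No batch or build is given in the sources used here.

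Of 45101 probe sets, 34945 carried 1 symbol, and each of 18193 genes took its brightest probe set by mean. EKO and WT were compared with limma 3.58.1 in R 4.3.3 (lmFit, eBayes, two-sided, Benjamini-Hochberg over all genes, threshold 0.05), checked on simulated data with known differences. P-values for a gene list as such were not computed. The 10 genes and all lists were chosen with earlier results of these data known. Named were the 10 genes, Fabp5, Sox2, the 3 genes of smallest p in each pathway list and the 5 most parallel to Axin2 and to Wnt5a. Others are said to be chosen after their values were seen. Alternatives were each array left out, other probe sets of the 10 genes, their mean, a block by replicate number, weights per array, robust variances with an intensity trend, medians centred or quantiles normalized again, and genes of the upper 50% of means alone. A covariate of hair follicle level was added after seeing the data.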

Additional observations from a re-analysis of the deposited data

How the results depend on the processing

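The number of genes past the threshold was 1 in the comparison of all arrays and ran from 1 to 42 with 1 array left out. It was 42 (38 higher, 4 lower) without EKO replicate 2 and 2 without WT replicate 2. Of the 10 genes 0 to 1 passed, the 1 being Ccn4, and of the other Wnt and BMP pathway genes 0 to 1, the 1 being Wnt9a, both without EKO replicate 2, where Sox2 passed too (4.72, adjusted p = 0.00416). The median difference of the 10 genes, 0.15, ran from 0.136 to 0.224 with 1 array left out, the highest value being that without WT replicate 3. It was 0.006 over the 6 genes in the upper 50% of means, a setting that drops Wnt3, Wnt5b, Rnf43 and Ccn4. With 1 array left out, directions turned for Wnt5b (-0.079 to 0.295), Wnt7b (-0.174 to 0.022), Wls (-0.241 to 0.103), Porcn (-0.178 to 0.035) and Notum (-0.089 to 0.057). Directions also turned for Wnt7b with its other probe set (0.077), for Bcl9l with a mean over probe sets (-0.023), and for Wnt5b (-0.169) and Porcn (0.074) with the hair follicle covariate. The cause was not tested. With the replicate number as a block 1 gene passed, 0 of the 10 did, and no call changed. The labels do not say whether the numbers pair the mice. The deviations of same-numbered arrays correlated at -0.074, -0.089 and -0.34, which shows no sign of pairing but cannot exclude it with 3 arrays per group. With 3 arrays per group and no detection calls, the signal over background of Wnt3, near the floor of the arrays, is not known.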
